A study of Mus musculus with 12 samples.

Results

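The starting state of the medial telencephalon was described from the 3 arrays of cells given control siRNAs, out of 12 arrays in the series. The members were chosen by their labels alone, and no treated array was read. Treated arrays could enter only the values taken from the deposited log2 table, whose centring is not given. In the wider study, CD-1 mouse embryos were electroporated at E11.5 in the medial telencephalon with control siRNAs, with either of 2 sets of siRNAs against Dmrt3 and Dmrta2, or with a Dmrta2 expression vector, with 3 replicates for each of the 4 groups. In the control group the siRNAs went in together with a vector for nuclear EGFP, and fluorescent cells were collected by cell sorting 24 h later, at E12.5. Cy3-labelled RNA was made from 0.1 µg of total RNA and hybridised to single-colour Agilent mouse arrays. The profile is therefore that of sorted, electroporated cells carrying siRNAs, not of untouched tissue, and no unelectroporated group is among the samples. The labels call the replicates independent but do not say how many embryos were pooled or whether litters differed. Each control array lay on a slide of its own, so slide and replicate cannot be told apart. In bulk RNA, fewer cells of a type and less RNA per cell cannot be told apart either.

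The medial telencephalon is the part of the early forebrain that gives rise to the hippocampus, the cortical hem and the choroid plexus. The hem is a signalling centre that secretes Wnt and Bmp proteins, and Dmrt3 and Dmrta2 are zinc-finger transcription factors of the dorsal progenitors beside it. At this age most cells of the wall are dividing radial glia-like progenitors, with the first intermediate progenitors, Cajal-Retzius neurons and deep-layer neurons leaving the ventricular zone.

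Levels are given on a log2 scale, as the spot's processed signal minus the 75th percentile of its own array, so 0 is the 75th percentile and each unit is a 2-fold difference. Where several probes measured a gene, the brightest was used. A gene is called detected when at least 1 of its probes was well above background, by the scanner software's mark, on all 3 arrays. Levels order probes by brightness and are not copy numbers, because probes differ in how strongly they bind. With a single group there is no test between conditions, and the error given is the SD over the 3 arrays.

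Of 19751 genes that could be named, 14008 (70.9%) were detected, 1167 (5.91%) were well above background on 1 or 2 arrays, and 4576 (23.2%) on none. The call is permissive. Olfactory, vomeronasal and taste receptor genes, which serve sensory neurons that are not in the forebrain wall, were detected in 223 of 1308 cases. The share was 17.3% of 1051 olfactory receptor genes, 15.1% of 219 vomeronasal and 21.1% of 38 taste receptor genes, against 74.7% of the other 18443 genes. Defensins, antimicrobial peptides, were detected in 12.3% of 57 genes. List counts are read against these shares and against the 70.9% of all genes. As a stricter line, chosen after these values were seen, the 95th percentile of the chemoreceptor levels was taken, at -4.06. Of all named genes, 12078 (61.2%) were detected and above this line.

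**Figure D1:**
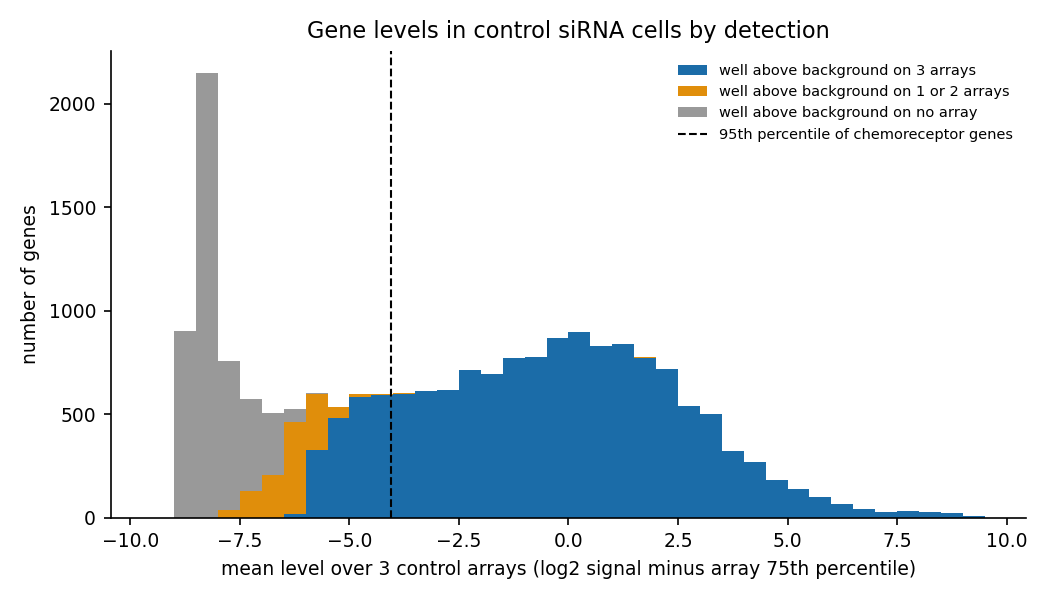
Number of named genes (vertical axis) by mean level over the 3 control arrays (horizontal axis, log2 signal minus the array's 75th percentile), in stacked bars coloured by the number of arrays on which the gene was well above background. The 4576 genes on no array form a narrow peak with a median of -8.24, the 14008 detected genes spread widely around a median of -0.36, and the dashed line marks -4.06.

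The regulators that define the dorsal telencephalon were all present. All 20 of the pallial regulators, transcription factors of the cortical wall and its borders, were detected and lay above the stricter line, with a median level of 2.16 against a median of -0.36 over all detected genes. Lhx2, the selector gene that keeps cortical progenitors from turning into hem, had levels of 6.30, 6.28 and 6.14. Its mean of 6.24 ± 0.09 (SD, n = 3) placed it at rank 195 of 19751 by probe brightness, and no array stood apart. Nr2f1, a nuclear receptor of cortical area patterning, read 4.96, 4.88 and 5.69, with replicate 3 highest and both of its probes detected. Emx1, a homeobox gene restricted to the pallium, read 2.48, 2.78 and 2.76. Its relative Emx2, needed for the hippocampus, read 0.46, 0.41 and 0.76. Pax6, which is lowest in the medial part of the normal cortical gradient, read -0.50, -0.31 and -0.41 by its brighter probe and had a mean of -3.68 by the other. The least even member was Nr2f2, a nuclear receptor related to Nr2f1, at -1.68, -0.16 and -1.05.

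The genes that the study's siRNAs were made against were both measured by 1 probe and detected. Dmrta2 read 2.72, 2.37 and 2.61, a mean of 2.57 ± 0.18 (SD, n = 3) and rank 2217. Dmrt3 read 0.06, 0.33 and 0.68, a mean of 0.35 ± 0.31 and rank 5731. For Dmrt3 the spread over replicates exceeded the median SD of 0.19 found over all detected genes, and for Dmrta2 it was close to it. Dmrta1, the third member of this subfamily with a role in the dorsal telencephalon, read -1.67, -1.46 and -1.67. Of the 10 Dmrt family genes measured, 6 (60%) were detected, against 70.9% of all genes. Dmrt1, known from testis development, read -0.38, -1.18 and -0.78. Dmrt2, a gene of somites, was above background on 2 arrays, and Dmrtc1a, Dmrtc1b and Dmrtc2 on none.

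Progenitor genes were detected throughout. All 20 neuroepithelial and radial glial genes, all 12 intermediate progenitor genes, 19 of 20 S phase genes and 19 of 20 genes of G2 and mitosis were detected, against 70.9% of all genes. Vim, an intermediate filament of radial glia, read 5.50, 5.33 and 5.41. Hes5, a Notch target that holds progenitors undifferentiated, read 5.13, 5.51 and 5.51. Sox2, the pan-neural progenitor factor, read 2.16, 1.89 and 2.11, and its relative Sox3 read 4.43, 4.12 and 4.69. The median SD over the 20 progenitor genes was 0.19, as over all detected genes. Among intermediate progenitor genes, Eomes, their defining T-box factor, read 3.65, 3.92 and 3.30. Neurog2, the proneural factor of the dorsal telencephalon, had a mean of 1.70 ± 0.22 (SD, n = 3), while Neurog1 read -3.19, -3.04 and -3.03. Gadd45g, a growth arrest gene active as progenitors leave the cycle, read 5.87, 6.07 and 5.93. Lin28b, an RNA-binding protein of early progenitors, was detected but lay at -4.12, under the stricter line.

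Neuronal genes were present beside those of progenitors. Of 22 genes of early cortical neurons, 21 were detected, and Neurod4 was above background on 1 array. Tubb3, the neuronal tubulin, read 5.34, 5.31 and 5.01. Tbr1, a T-box factor of the first deep-layer neurons, read 4.21, 4.51 and 3.51, and Dcx, a microtubule protein of migrating neurons, read 1.24, 2.24 and 0.98. In both Tbr1 and Dcx replicate 2 was the highest and replicate 3 the lowest. Of 14 Cajal-Retzius genes, 11 were detected. The group was led by Zic1, at 3.60, 3.83 and 3.16, a zinc-finger gene that the medial wall also uses. Reln, which encodes the secreted protein that defines these cells, read only -5.30, -4.07 and -5.12 by its single probe. Trp73, the p53 relative expressed in hem-derived Cajal-Retzius cells, read -2.12, -1.18 and -1.11, and Calb1, Barhl2 and Foxc1 were above background on no array.

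Genes of the cortical hem and dorsal midline were detected in 19 of 22 cases, 17 of them above the stricter line. Among the ligands, Wnt8b, a Wnt of the hippocampal primordium, read 1.24, 1.47 and 1.25. Wnt5a read -0.74, 0.05 and -0.69, and Wnt3a, the hem Wnt on which the hippocampus depends, read -5.65, -5.69 and -4.48. Wnt2b was above background on 2 arrays. The R-spondins, secreted proteins that strengthen Wnt signals, read 1.99, 2.73 and 2.39 for Rspo1, 0.26, 1.25 and 0.94 for Rspo3, and -2.14, -0.69 and -0.61 for Rspo2. In all 3 of them replicate 1 was the lowest. Of Bmp ligands in the list, Bmp7 read 0.36, 0.19 and 0.44, Bmp4 read -4.41, -3.43 and -3.68, and Bmp5 was above background on no array. Lmx1a, a homeobox factor of the hem and roof plate, read -2.29, -0.90 and -1.21, and Msx1, a Bmp target, read -2.79, -2.32 and -2.29. All 10 Frizzled receptors were detected, led by Fzd9 at 3.12, 3.52 and 3.79. Of 19 Wnt ligands 13 (68.4%) were detected, near the 70.9% of all genes. All 5 Fgf receptor genes were detected, led by Fgfr3 at 3.71, 3.75 and 4.48, against 10 of 22 Fgf ligands. All 9 Notch receptors and ligands were detected, with Dll3 at 2.74, 2.62 and 2.47. Fgf8, the signal of the rostral midline, read -3.24, -3.68 and -3.04 by the brightest of 3 probes, of which another was above background on 2 arrays, with a mean of -6.17, and the last on none. Its target Etv5 read 1.02, 1.67 and 0.34.

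Choroid plexus genes, which mark the secretory epithelium next to the hem, were detected in 8 of 12 cases, close to the share of all genes. Their best-known member Ttr, the thyroid hormone carrier, differed between arrays more than any other member of the list: it read -3.85 in replicate 2 and -3.30 in replicate 3 and was not well above background in replicate 1. Otx2, which specifies this epithelium, read -0.74, 0.03 and -0.15.

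**Figure D2:**
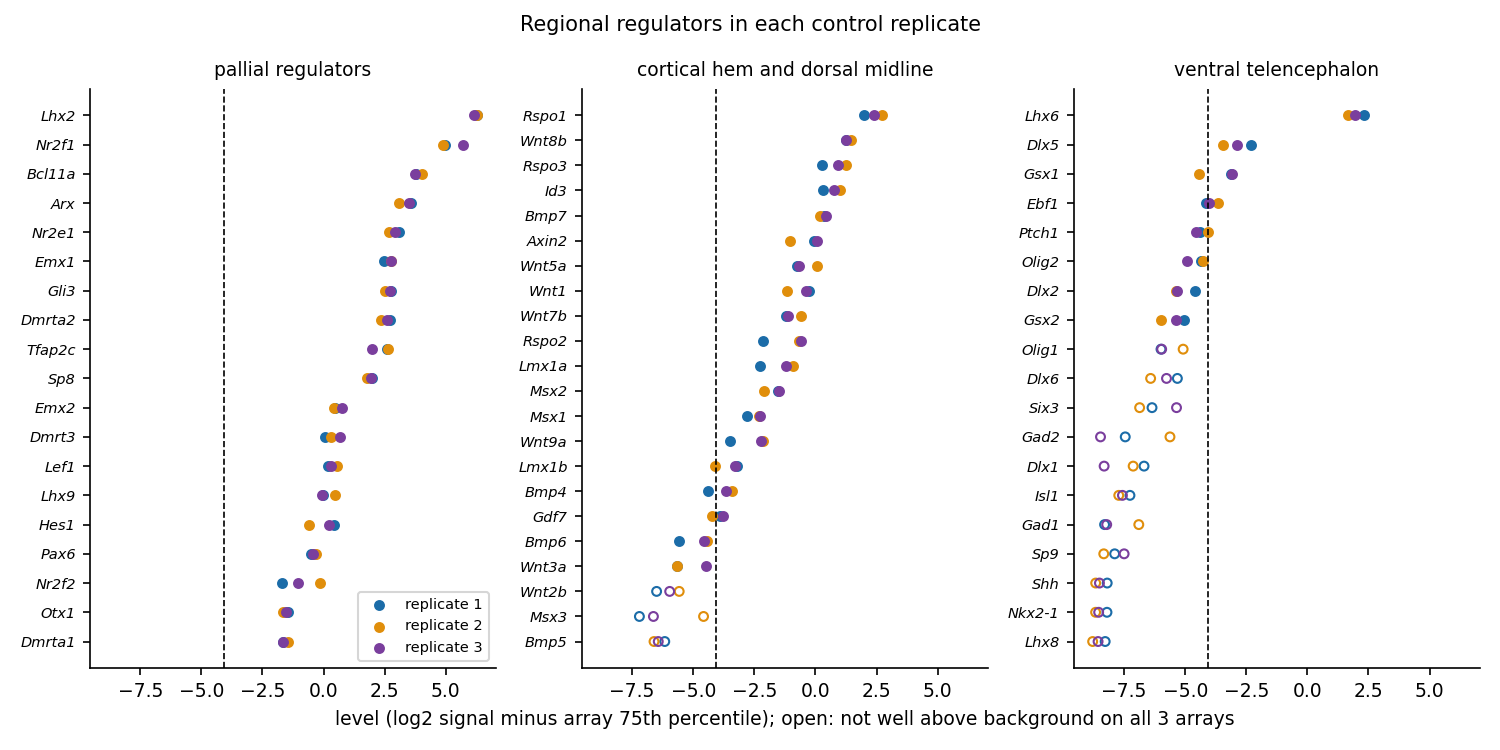
Level of members (horizontal axis, log2 signal minus the array's 75th percentile) of 3 regional lists in each control replicate (colours), with open points for genes not well above background on all 3 arrays and a dashed line at -4.06. A few members are not drawn. The pallial regulators lie right of the line as filled points, the 22 hem and midline genes span it, and the ventral genes lie mostly left of it, where 11 have open points.

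Genes of neighbouring territories had shares below the 70.9% of all genes. Of 20 ventral telencephalic genes, 9 (45%) were detected and 5 lay above the stricter line, while 15 passed the scanner software's looser mark for positive and significant signal, which 15887 of all 19751 genes passed. Nkx2-1, Shh, Lhx8, Isl1, Dlx1, Sp9 and Gad1, which specify or mark the ganglionic eminences and their GABAergic neurons, were above background on no array. Dlx5, a homeobox gene of the same neurons, read -2.30, -3.44 and -2.88. Lhx6, a factor of migrating interneurons, had the highest level of the list at 2.33, 1.65 and 1.93, but by 1 of 3 probes only: its other 2 probes were above background on no array. In the diencephalon and eye field list 5 of 16 genes (31.2%) were detected, and in the midbrain and hindbrain list 4 of 16 (25%). Without replicate 2, where detection asked for 2 arrays only, the latter count was 7 of 16. En1, a gene of the midbrain-hindbrain border, was above background on no array, whereas its relative En2 read -2.98, -3.12 and -2.93. Of 39 Hox genes, which pattern the body caudal to the forebrain, 7 (17.9%) were detected, 29 were above background on no array, and Hoxc12 alone passed the stricter line, at -2.46, -4.34 and -4.46. The Hox share is close to the 17.3% of olfactory receptor genes.

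**Figure D3:**
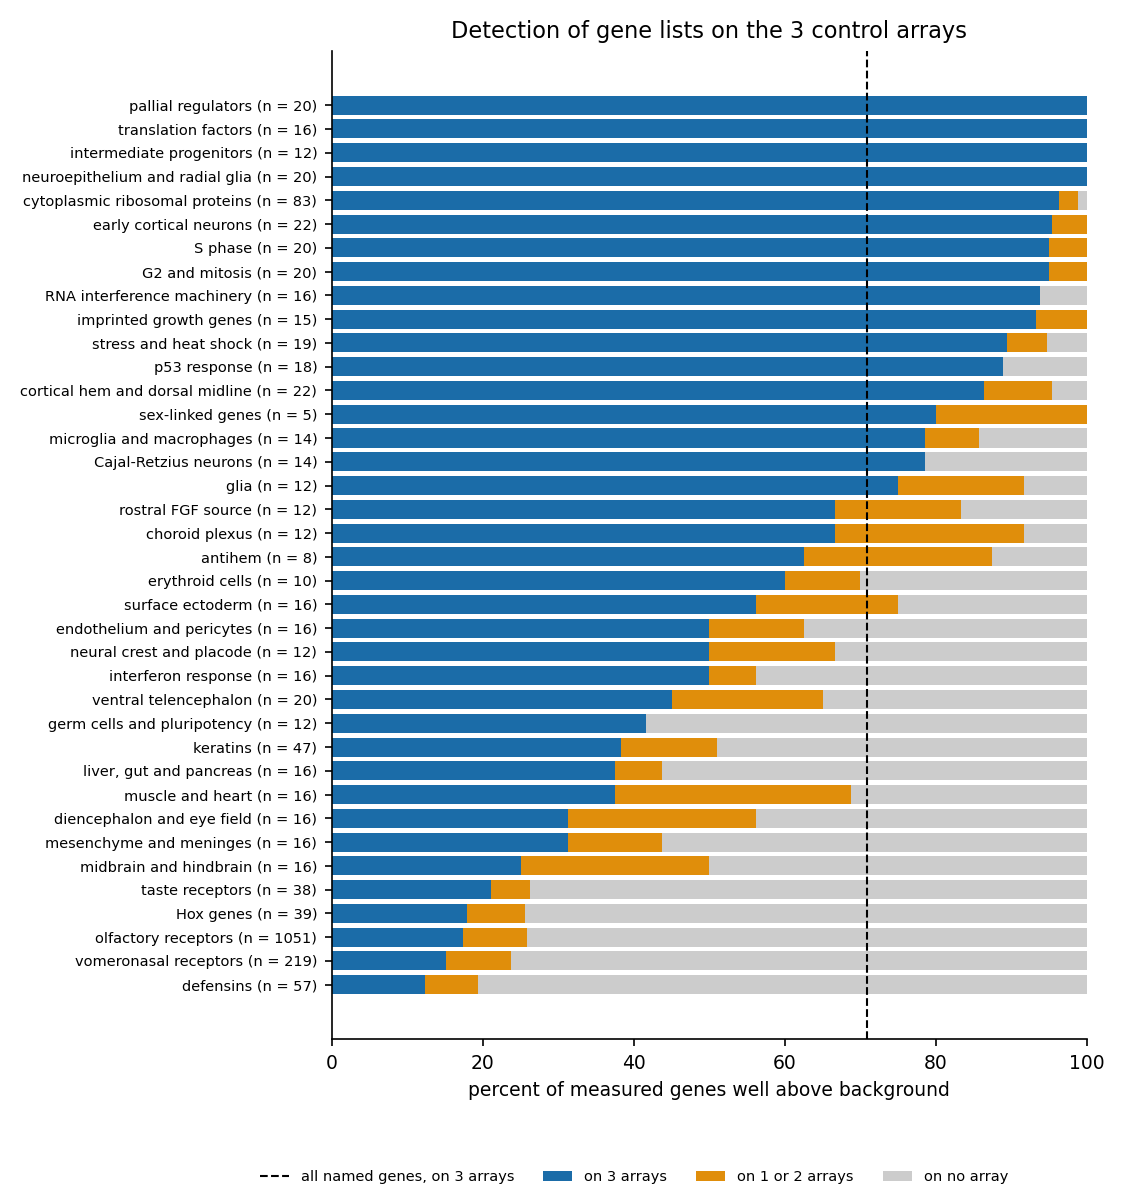
Percent of the measured genes of each list (horizontal axis) that were well above background on 3 arrays, on 1 or 2, or on none, with the dashed line at the 70.9% of all named genes. Progenitor, pallial, neuronal and housekeeping lists stand at the top between 95% and 100%, and the midbrain, Hox and chemoreceptor lists at the bottom, at 25% or less.

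Markers of the other cell types that a dissected and sorted telencephalon could hold were mixed, and several rested on a single probe. Microglia and macrophage genes were detected in 11 of 14 cases (78.6%), against 70.9% of all genes. Of the 14, 5 (35.7%) lay above the stricter line, against 61.2% of all genes. Spi1, the master factor of this lineage, and Laptm5 were above background on no array, and Cx3cr1, a microglial chemokine receptor, read -3.75, -3.45 and -3.17. Itgam, an integrin of the same cells, read 4.22, 3.51 and 3.89 by its brightest probe, but its other 2 probes had means of -3.87 and -5.06. Csf1r, the receptor for their growth factor, had means of 1.92, -0.49 and -4.47 by its 3 probes. Also detected were Fcer1g, C1qb, Aif1, Tyrobp, C1qc, Trem2, Cd14 and Ptprc, with means from -3.38 for Fcer1g to -5.73 for Ptprc. Endothelial and pericyte genes were detected in 8 of 16 cases. Cdh5, Tie1, Tek and Emcn, which define endothelium, were above background on no array, Pecam1 read -3.58, -3.69 and -3.35, and Kdr read 3.58, 2.57 and 3.36 by 1 probe against a mean of -3.17 by the other. Egfl7 read 0.60, 0.35 and 0.98 by its single probe. The other detected members were Pdgfrb, Esam, Cldn5, Cspg4 and Kcnj8, with means from -3.91 for Pdgfrb to -5.48 for Kcnj8. Mesenchyme and meninges genes were detected in 5 of 16 cases, with Lum, Postn, Twist1, Twist2, Foxc1 and Foxd1 above background on no array. The detected members were Dcn, Prrx1, Col1a2, Col1a1 and Aldh1a2, of which Dcn read -0.36, 0.28 and -0.37 by its single probe and Prrx1 had a mean of -1.56. Of 10 erythroid genes 6 were detected. Hbb-y, an embryonic globin, read 1.11, -0.55 and 1.31 by 1 probe and agreed in order by the other, while Gata1 and Alas2 were above background on no array. Surface ectoderm genes were detected in 9 of 16 cases, of which Trp63 read 3.46, 3.17 and 3.05 by 1 probe and had a mean of -5.15 by the other. Of 12 glial genes, 9 (75%) were detected, near the 70.9% of all genes. Gfap read -2.85, -3.41 and -3.28 by 1 of 3 probes, the other 2 being above background on no array. Mbp, a myelin protein, read 0.69, 0.30 and 0.89 by the brightest of 3 probes, and its other 2 had means of -3.31 and -4.33. Whether any of these signals came from such cells was not tested.

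Genes of tissues outside the brain were detected in part. Germ cell and pluripotency genes were detected in 5 of 12 cases, liver, gut and pancreas genes in 6 of 16, and muscle and heart genes in 6 of 16. Alb, Afp, Pou5f1, Dazl, Ddx4, Myf5 and Des were above background on no array. Other genes typical of these tissues were detected: Nanog, a pluripotency factor, read 0.22, -0.44 and -0.06, and Nppa, a hormone of the heart, read -3.32, -3.78 and -3.00. Apoa2, a liver apolipoprotein, read 1.72, 0.56 and 1.62 by 1 probe, and its other probe was above background on no array. Over the non-family lists together, 549 genes were measured, 171 had several probes, and in 71 of these the probes' means differed by more than 3 log2 units.

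Genes that RNA delivery and handling can act on were examined next. Of 16 interferon-response genes, 8 (50%) were detected. Ifit1, Ifit3, Rsad2, Cxcl10 and Irf7, which double-stranded RNA is known to induce through innate sensors, were above background on no array, and Isg15, a ubiquitin-like interferon target, read -1.33, -1.32 and -1.91. The other detected members were Stat2, Ddx58, Bst2, Ifit2, Usp18, Oas1a and Oas2, with means from -0.51 for Stat2 to -5.62 for Oas2. The RNA interference genes were detected in 15 of 16 cases. Ago2, the slicing Argonaute through which siRNAs act, read 1.23, 1.05 and 1.08, Dicer1 read 1.79, 1.88 and 1.85, and Tlr3, an endosomal sensor of double-stranded RNA, was above background on no array. Of p53-response genes 16 of 18 were detected, with Mdm2, the p53 ubiquitin ligase, at 3.27, 3.18 and 3.04, and Cdkn1a, the cell cycle inhibitor, at -1.30, -0.35 and -0.40. Heat shock and stress genes were detected in 17 of 19 cases, with Hspa8, the constitutive chaperone, at 7.93, 7.61 and 7.71 and the inducible Hspa1a at -3.71, -3.12 and -1.33. Because no array of unelectroporated cells was among the samples, these levels have no baseline of their own. Xist, from the inactive X of females, read 1.49, 0.83 and 1.45, and the Y-linked Ddx3y read -1.69, -1.15 and -2.50, so each replicate gave signal from both.

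Many of the brightest probes, but not all, belonged to growth and housekeeping genes. Of the 30 highest genes, 8 were histone genes and 5 cytoplasmic ribosomal protein genes, and of the highest 100, 12 and 41 were. H2ac12, a replication-dependent histone H2A gene, was first with 9.51, 9.18 and 9.22. The H2A genes H2ac22, H2aj, H2ac10, H2ac11, H2ac15, H2ac20 and H2ac19 followed within the highest 11. Their coding sequences are near identical, so a probe for 1 copy may read others, and their order is uncertain. The ribosomal protein genes included Rpl41, Rps14, Rpsa and Rpl35, and they too have many processed copies. Actb and Actg1, the cytoplasmic actins, had means of 8.73 and 8.50, Tuba1b, a tubulin of dividing and neuronal cells, 8.61, and Ppia, a common reference gene, 8.62. Over all 83 ribosomal protein genes, 80 were detected with a median level of 7.30 over the list, and all 16 translation factors were detected with a median of 5.60.

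Several of the highest genes were high by 1 or 2 probes and not by the rest. H2aj went from a mean of 9.18 by its brighter probe to 4.22, rank 563, when its 2 probes were averaged, and Rpsa from 8.55 to 4.97, rank 328, over 4 probes. F10, a coagulation factor made in liver, read 9.34 in replicate 1 and 9.16 in replicate 2, with a mean of 9.16 ± 0.17 (SD, n = 3) and rank 4, but its other probe was above background on no array. Slc10a1, a bile acid transporter of liver, read 9.02, 8.86 and 8.73 by 1 probe, and again the other was above background on no array. Elk1, an ETS transcription factor, had a mean of 8.97 by 1 probe and -3.38 by the other. Ttc38 went from a mean of 8.80 by its brightest probe to -0.77 when its 4 probes were averaged, and Kctd14 from 9.07 to 1.19 over 3 probes. Exosc2, an RNA exosome subunit, Rn4.5s, a small cytoplasmic RNA, Med16, a Mediator subunit, and Medag, Ndor1, Synrg, Milr1 and Zfp628 were also among the 30. When the probes of each gene were averaged, 14 of the 30 stayed among the highest 30. Of the 30, 13 had a single probe, so their levels could not be set against a further probe. Of all 5270 genes with several probes, 661 had 1 probe detected and another above background on no array.

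Among families of transcription factors and chromatin proteins, the 12 brightest members included chromatin architectural proteins and neural regulators. Hmgn1, Hmgb1, Hmgn2, Hmga1, Hmgb2 and Hmgb3, non-histone proteins that loosen or bend chromatin and are abundant in dividing cells, had means between 5.14 and 6.71. Lhx2 and Hes5 were described above. Nfib, a nuclear factor I gene that drives later differentiation of cortical progenitors, read 5.53, 5.91 and 5.33. Foxo6, a forkhead factor of the hippocampus and cortex, read 5.18, 5.24 and 5.10 by its brighter probe and had a mean of -0.45 by the other. Families differed in the share detected: all 4 nuclear factor I genes, all 8 E2f genes, all 9 Meis, Pbx and Tgif genes and all 5 Zic genes were detected, against 26 of 44 Fox genes, 4 of 9 Pax genes, 3 of 6 Dlx genes and 1 of 6 Gata genes. Guidance families were largely detected, with 20 of 22 Eph and ephrin genes and 26 of 29 semaphorin and plexin genes.

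The 3 replicates agreed closely, and replicate 2 was the least like the others. Over the 14005 detected genes with a value on every array, Pearson's r across genes was 0.994 between replicates 1 and 3, and 0.987 between replicate 2 and each of them; genes are not independent replicates, and the arrays share every probe. A difference over 2-fold was seen for 218 genes (1.56%) between replicates 1 and 3, for 672 (4.80%) between 1 and 2, and for 750 (5.36%) between 2 and 3. Of the 1132 genes whose range over the 3 arrays exceeded 2-fold, replicate 2 lay farthest from the mean in 739 (65.3%), low in 468 and high in 271. The median SD was 0.19, and it fell with brightness, from 0.31 to 0.13 between the dimmest and the brightest of 10 equal groups of detected genes. Over replicates 1 and 3 alone the median SD was 0.120, but SDs over 2 arrays tend to have a lower median than SDs over 3. Probes printed 10 times on each array gave a median SD of 0.0622 between spots of an array and of 0.175 between arrays, and the latter was the larger in 88.9% of 279 such probes.

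Gene groups differed between the replicates. S phase genes were lowest in replicate 2 in 18 of 19 cases, where 38.9% of all detected genes were lowest in that replicate, and their median deviation there was -0.30. The drop was not particular to them. Median deviations in replicate 2 were -0.47 for germ cell and pluripotency genes, -0.34 for keratins, -0.31 for vomeronasal and -0.26 for olfactory receptor genes, which are dimmer lists. Pcna, the replication clamp, read 5.71, 5.19 and 5.70, and Mcm3, a subunit of the replicative helicase, read 4.02, 3.53 and 4.23. Genes of G2 and mitosis were lowest in replicate 2 in 14 of 19 cases. Early neuron genes ran the other way: 14 of 21 were highest in replicate 2, as were 37.0% of all detected genes, and 17 of 21 were lowest in replicate 3, as were 32.9% of all, with median deviations of 0.41 and -0.44. Neurod2, a bHLH factor of cortical neurons, read 3.35, 3.84 and 2.53, and Gap43, a growth cone protein, read 2.30, 2.84 and 1.81. Of 11 Cajal-Retzius genes 8 were highest in replicate 2, as were all 5 Zic genes, some of which are in both lists. Hem genes were lowest in replicate 1 in 12 of 19 cases, with a median deviation of -0.33, and choroid plexus genes in 6 of 8, with -0.40, where 28.2% of all detected genes were lowest in that replicate. Microglia genes were highest in replicate 3 in 8 of 11 cases, against 30.3% of all detected genes. The list's summed signal on the log2 scale, 4.63, 3.79 and 4.34, was highest in replicate 1. That sum rests mainly on Itgam, at 4.22, 3.51 and 3.89, and on Csf1r, with a mean of 1.92. The other detected members had means of -3.38 or less. Further probes of Itgam and Csf1r were dimmer, as given above, so the sum does not stand for the list as a whole. Pallial regulators had median deviations of no more than 0.01 in size in any replicate. The share of each cell type in the sorted cells was not measured, and its part in these differences was not tested.

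**Figure D4:**
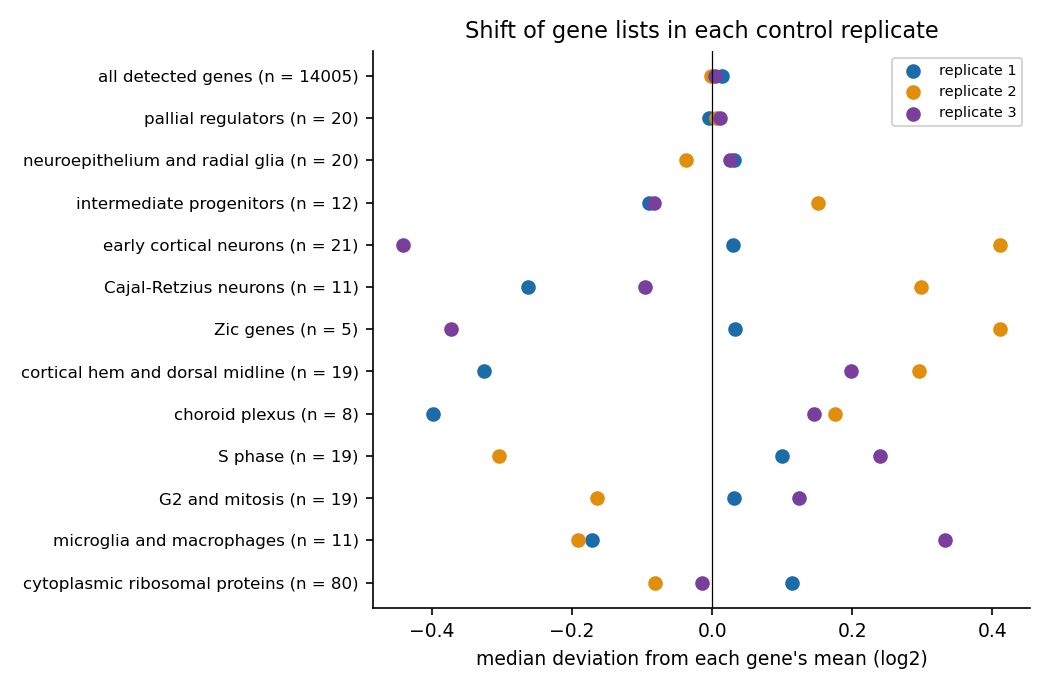
Median deviation of the detected members of each list from the gene's own mean over the 3 control arrays (horizontal axis, log2), with a point for each replicate. Early neuron genes stand at 0.41 in replicate 2 and -0.44 in replicate 3, S phase genes at -0.30 in replicate 2, and all detected genes and pallial regulators near 0 in every replicate.

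Some of the genes with the largest SD are immediate-early genes, which neurons and stressed cells switch on within minutes of a stimulus. The further genes of this kind given here were picked after values were seen, so they carry no count for the class. Fos, which encodes an AP-1 subunit, read 2.56 in replicate 1 against 0.03 and -0.38. Fosb read -0.32 against -3.35 and -2.86, Egr1 read 1.18 against -1.53 and -1.48, and Klf2, a Krüppel-like factor, read 1.20 against -1.79 and -0.56. Jun, the partner of Fos, read 6.13 against 5.19 and 5.49, whereas Ier2 was lowest in replicate 1, at -1.48, -1.37 and -1.28. Junb was above background on no array. Fos, Fosb, Egr1 and Klf2 are among the 20 detected genes with the largest SD, which was largest for Ston1, an endocytic adaptor, at 1.94. The others were dim or followed a single array. Smg8, a factor of nonsense-mediated decay, read -2.33, -5.73 and -2.49, and Ubxn4, Psg28 and Lrrc2 were likewise lowest in replicate 2, as was Cwc22, a splicing factor, at 2.45, -0.11 and 3.34. Slc7a3, an arginine transporter, and Syt10 were highest in replicate 3 and Lypd10 and Phldb3 in replicate 2. Nat8f4 and Fggy were lowest in replicate 1, and Zfp979 and Arl16 in replicate 3. Vmn1r216 and Olfr1043, chemoreceptor genes, were also among the 20. Of 122 detected genes with an SD above 1, 78 lay above the stricter line. Outside the 20, and chosen after their values were seen, Aurkb, a mitotic kinase, read -1.87 and -1.73 in replicates 1 and 3 and was not well above background in replicate 2.

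Detection went together with the base composition of the promoter. RefSeq promoter windows on GRCm38.p6, from 250 bases before to 50 after the annotated start, matched 15711 of the named genes by symbol (79.5%). A window was called CpG-rich when its CG dinucleotides exceeded 0.6 of the number its C and G content gives and its GC content exceeded 55%. Such windows were 57.4% of those of detected genes, 22.4% for genes on 1 or 2 arrays and 11.2% for genes on none, or 14.5% when chemoreceptor genes were left out of the last. Over 10 equal groups of genes ordered by the CpG ratio, the share detected went from 30.03% in the lowest to 96.2% in the highest. Chemoreceptor genes, of which 17% were detected, were kept in these groups, and shares without them are not given. The motif TATAAA, on the gene's strand between 45 and 10 bases before the start, was in 5.92% of windows of genes on no array and in 1.94% of those of detected genes, against 2.45% of all 27025 windows in the table searched the same way. The 6 windows below are shown because they span this contrast: regulators and a neuronal gene that were detected, the genes the siRNAs were made against, and a Hox and an olfactory receptor gene on no array. Capitals mark every CG dinucleotide, and each window runs 5′ to 3′ on the plus strand, which is the gene's strand. They lie at chr2:38339031-38339330 for Lhx2, chr8:123411303-123411602 for Tubb3, chr4:109977775-109978074 for Dmrta2, chr19:25610287-25610586 for Dmrt3, chr11:96318017-96318316 for Hoxb4 and chr17:37445230-37445529 for Olfr108.
Lhx2: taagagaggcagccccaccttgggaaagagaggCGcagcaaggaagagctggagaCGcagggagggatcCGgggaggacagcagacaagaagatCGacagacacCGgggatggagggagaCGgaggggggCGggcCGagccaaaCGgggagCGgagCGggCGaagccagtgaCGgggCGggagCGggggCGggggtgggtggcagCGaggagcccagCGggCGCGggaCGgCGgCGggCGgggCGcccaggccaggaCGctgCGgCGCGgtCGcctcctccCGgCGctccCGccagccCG
Tubb3: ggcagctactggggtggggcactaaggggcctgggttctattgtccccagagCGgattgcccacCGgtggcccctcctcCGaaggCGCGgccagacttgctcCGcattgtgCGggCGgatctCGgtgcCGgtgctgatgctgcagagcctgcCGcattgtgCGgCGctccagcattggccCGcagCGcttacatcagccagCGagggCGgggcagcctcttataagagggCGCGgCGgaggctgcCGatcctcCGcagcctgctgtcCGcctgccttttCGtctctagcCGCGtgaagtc
Dmrta2: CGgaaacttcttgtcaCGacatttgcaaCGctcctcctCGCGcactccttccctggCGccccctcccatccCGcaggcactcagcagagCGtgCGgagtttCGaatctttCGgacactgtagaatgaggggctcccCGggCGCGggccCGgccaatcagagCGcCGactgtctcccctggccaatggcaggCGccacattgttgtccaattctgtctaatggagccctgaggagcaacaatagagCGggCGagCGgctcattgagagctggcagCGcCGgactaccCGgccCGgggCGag
Dmrt3: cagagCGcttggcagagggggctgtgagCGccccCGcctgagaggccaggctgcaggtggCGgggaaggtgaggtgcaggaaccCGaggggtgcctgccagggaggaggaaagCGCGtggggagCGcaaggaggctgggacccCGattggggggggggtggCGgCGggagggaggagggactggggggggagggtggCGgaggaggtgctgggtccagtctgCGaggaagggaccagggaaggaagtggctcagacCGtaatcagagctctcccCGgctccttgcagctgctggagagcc
Hoxb4: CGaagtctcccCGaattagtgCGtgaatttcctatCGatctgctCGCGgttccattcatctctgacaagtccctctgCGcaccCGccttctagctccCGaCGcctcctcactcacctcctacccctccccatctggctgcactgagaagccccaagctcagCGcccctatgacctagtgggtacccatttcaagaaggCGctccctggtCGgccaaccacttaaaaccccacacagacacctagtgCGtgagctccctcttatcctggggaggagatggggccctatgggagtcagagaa
Olfr108: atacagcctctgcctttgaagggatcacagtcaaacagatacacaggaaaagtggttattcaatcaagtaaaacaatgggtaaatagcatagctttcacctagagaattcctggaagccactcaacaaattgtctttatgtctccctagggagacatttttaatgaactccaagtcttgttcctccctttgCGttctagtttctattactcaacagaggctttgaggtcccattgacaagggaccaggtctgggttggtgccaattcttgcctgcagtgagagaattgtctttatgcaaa

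The Lhx2 window held 34 CG dinucleotides, the Tubb3 and Dmrta2 windows 26 each, and the Dmrt3 window 15. The Hoxb4 window held 14, close to that of Dmrt3, although Hoxb4 was on no array, and the Olfr108 window held 1. Composition and detection therefore did not run together for every gene. Of 22 Hox windows 31.8% were CpG-rich, of 899 olfactory receptor windows 0%, and of 15 pallial regulator windows 60.0%. In 88.2% of the 17 windows of G2 and mitosis genes the motif CCAAT was found on either strand of the 250 bases before the start, against 34.5% of all windows, and TATAAA, searched as above, was in 38.2% of 34 keratin windows. These are descriptions of letters in a window, not of bound sites.

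**Figure D5:**
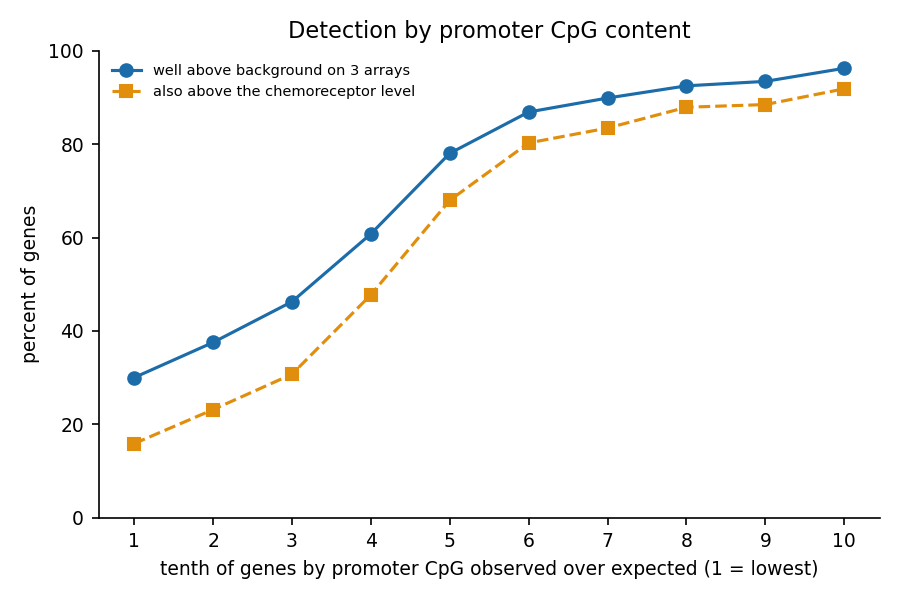
Percent of genes detected (circles) and also above the level of -4.06 (squares), on the vertical axis, for 10 equal groups of genes ordered by the promoter's CpG observed over expected (horizontal axis, 1 is lowest). The share detected goes from 30.03% in the lowest group to 96.2% in the highest, with chemoreceptor genes included.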

How the data were processed

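The authors deposited 1 scanner file per array, from Agilent Feature Extraction 10.5.1.1 per the file headers and the submitters' processing notes, with spot intensity after background subtraction and spatial detrending and no scaling between arrays. The deposited log2 table holds the same arrays: between control arrays its differences matched those of the scanner values with a slope of 1.00 and r of 1.00 over 25445 probes, its column medians were 0.10, -0.02 and 0.04, and its values appear centred within each probe, which hides levels, so it was used for spread only; how it was centred is not given in the sources used here.

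Spots marked as outliers (136 to 174 of 43020 per array) were removed, log2 processed signals were set relative to the array's 75th percentile, and spots of a probe were averaged. A probe was present on an array when at least 50% of its spots were marked well above background. Accessions named 26055 of 39429 probes through RefSeq (GRCm38.p6). The 75th percentile lay at signals of 624 to 735, between 67.1% and 69.0% of spots were well above background, 0 were saturated, and 0 to 2 of 153 negative-control spots were marked. With 3 arrays, precision is limited by their number. Of the detected genes, 3 lack a value on an array and have means over the others.

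Genes named are Dmrt3 and Dmrta2, members of written gene lists, the 30 brightest genes, the 12 brightest members of regulator families, and the 20 detected genes with the largest SD, clone and locus names left out. Members and lists were chosen with earlier results of these data known, and histone genes were counted from a list made after their values were seen, because the written pattern matched no current symbol. Code was tested on simulated data. Tools were Python 3.11.15, pandas 2.3.3, numpy 2.4.6, R 4.3.3 and limma 3.58.1 (normexp). Treated arrays were not read here, and whether the centring of the deposited table used them is not known. Results of some genes that meet the rule are not reported here.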

Additional observations from a re-analysis of the deposited data

Results flagged for a closer look

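Probes without a gene name here lie outside every count above. Of 13374 such probes, 7077 (52.9%) were well above background on all 3 control arrays, against 0 to 2 of 153 negative-control spots on each array and 70.5% of the named probes. What they measure was not tested.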

How the results depend on the processing

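No paired analysis was possible because the profile holds 1 group and no test between groups. Against 14008, the number of genes detected was 14019 with outlier spots kept and 15887 with the looser mark for positive and significant signal. It was 13031 when all probes of a gene had to be present and 14520 when 2 of 3 arrays sufficed. It was 12078 above the line at -4.06, which was chosen after seeing the data. Each is within 1.5 times 14008, but with 19751 genes named no rise could pass that bound. The looser mark left 1954 genes on no array in place of 4576 and raised the detected chemoreceptor genes from 223 to 419, so both counts depend on the mark. CpG-rich shares of detected genes and of the others were 53.1% and 7.60% by the looser mark and 56.3% and 12.4% with 2 of 3 arrays, and 62.0% of detected genes above the line. The median SD was 0.144 after normexp background correction, against 0.186. In the deposited table, where levels are centred within probes, the lowest correlation between control arrays was -0.208, against 0.987 from levels. Averaging probes kept 14 of the 30 highest genes; other scalings and left-out arrays kept 26 to 30. Leaving out each replicate in turn gave 14095 to 14297 detected genes, 4676 to 4880 on no array, 417 to 427 detected list members and 229 to 235 chemoreceptor genes. Detection then asked for the 2 remaining arrays only, so none of these counts could fall. Median SDs were 0.120 to 0.171 and lowest correlations 0.987 to 0.993. The median SD was lower with any array left out than with all 3, but SDs over 2 arrays tend to have a lower median than SDs over 3. Among the pairs of arrays it was lowest, at 0.120, without replicate 2, where the correlation was 0.993. Among the midbrain and hindbrain genes 7 of 16 were detected on the 2 other arrays without replicate 2, against 4 on all 3, a count that could not fall. By the looser mark, 6 of 32 list counts moved by more than 1.5 times, among them the ventral telencephalon, from 9 to 15 of 20. Lists whose members were nearly all detected could not rise by that much. Dim genes have the largest SDs, so differences among them are the least certain.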

Other observations

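Imprinted growth genes, which act by dose in the embryo and are written in 1 parental copy, were not described above. Of 15 measured, 14 were detected and Zim1 was above background on 1 array. Gnas, a G protein subunit, read 4.92, 5.26 and 4.98, and Plagl1, a zinc-finger growth regulator, read 4.84, 4.75 and 4.80. Nnat, a membrane proteolipid of developing neurons, read 4.12, 3.88 and 4.25, and Cdkn1c, a cell cycle inhibitor, read 4.24, 4.29 and 3.48, with replicate 3 lowest. Igf2, the fetal growth factor, had a mean of -4.20 ± 0.28, whereas its clearance receptor Igf2r read 1.42, 1.30 and 1.35.

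Proteasome subunits were detected in 36 of 39 cases with a median SD of 0.08, and tubulins in 16 of 17. Glutamate receptor genes were detected in 14 of 26 cases (53.8%) and GABA-A receptor genes in 13 of 19 (68.4%), against 70.9% of all genes. Interleukins were detected in 9 of 32 cases, cytochromes P450 in 39 of 90 and keratins in 18 of 47. Fgf23, a bone hormone, read 3.83, 3.10 and 3.53 by 1 probe, and its other probe was above background on no array.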
